A study of Mus musculus with 13 samples.

Results

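The genes described here are 7 classical astrocyte markers, Slc1a2, Slc1a3, Aldoc, Aldh1l1, Gja1, Aqp4 and Gfap, followed in excitatory neurons and in tissue sections of the mouse retrosplenial cortex, a midline cortical area. All 7 had a row among the 15114 genes of the cell table and among the 32285 genes of the section table. They were chosen by their known astrocyte expression and by their levels in these same cells, so levels across cells, clusters, depth and zones are given as descriptions, with no test. The cells were labelled as neurons of wild-type B6 mice, obtained by microdissection of acute slices and pooled over them, in 1 group of 11 samples (samples 1 to 3 from animal 1, 11 to 14 from animal 2, 15 to 18 from animal 3), with 765 cells in all. The sections were 2 cryosections of 10 µm from flash-frozen wild-type brains on Visium slides, called S4 and S8, with 1973 spots in all. Neither labels nor protocols name a treatment, age or sex, and nothing ties S4 or S8 to an animal. Each cell came from an anterior (256 cells), medium (217) or posterior (292) dissection level, per the deposited table of cells.

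Astrocytes clear glutamate from the synapse, buffer potassium, move water at their endfeet and supply neurons with metabolites. Slc1a2 and Slc1a3 encode GLT-1 and GLAST, the main glutamate transporters of the forebrain, both classically assigned to astrocytes although Slc1a2 mRNA is also known in some neurons. Aldoc encodes the brain form of the glycolytic enzyme aldolase, and Aldh1l1 encodes a cytosolic 10-formyltetrahydrofolate dehydrogenase of folate metabolism that is widely used to mark astrocytes. Gja1 encodes the gap junction protein connexin 43, Aqp4 the endfoot water channel and Gfap the intermediate filament of the astrocyte skeleton.

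The sequence from 250 bases before to 50 bases after the start site was read from RefSeq (build GRCm38.p6) for the 3 members with counts in many neurons and for Gja1, 1 of the 4 that were nearly absent from them, so that both kinds can be seen side by side. Capitals mark CANNTG, the E-box read by basic helix-loop-helix factors such as the neuronal Neurod proteins.
Slc1a2 (chr2:102706188-102706487, plus strand): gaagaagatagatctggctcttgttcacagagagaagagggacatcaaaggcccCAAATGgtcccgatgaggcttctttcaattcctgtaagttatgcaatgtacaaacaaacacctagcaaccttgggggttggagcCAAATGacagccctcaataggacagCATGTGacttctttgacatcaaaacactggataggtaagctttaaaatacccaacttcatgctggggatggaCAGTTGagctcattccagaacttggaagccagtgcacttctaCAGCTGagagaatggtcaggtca
Aldoc (chr11:78322823-78323122, plus strand): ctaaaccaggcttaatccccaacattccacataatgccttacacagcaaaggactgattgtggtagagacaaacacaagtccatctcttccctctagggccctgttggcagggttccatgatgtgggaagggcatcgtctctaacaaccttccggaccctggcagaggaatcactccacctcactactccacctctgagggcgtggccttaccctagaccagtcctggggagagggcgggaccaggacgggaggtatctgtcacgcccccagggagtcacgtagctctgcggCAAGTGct
Aldh1l1 (chr6:90550543-90550842, plus strand): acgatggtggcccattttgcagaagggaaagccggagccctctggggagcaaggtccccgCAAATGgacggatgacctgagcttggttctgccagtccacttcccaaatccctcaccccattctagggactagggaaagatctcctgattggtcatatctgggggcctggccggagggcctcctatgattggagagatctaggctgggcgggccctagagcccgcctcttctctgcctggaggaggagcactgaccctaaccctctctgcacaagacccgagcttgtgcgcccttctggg
Gja1 (chr10:56377050-56377349, plus strand): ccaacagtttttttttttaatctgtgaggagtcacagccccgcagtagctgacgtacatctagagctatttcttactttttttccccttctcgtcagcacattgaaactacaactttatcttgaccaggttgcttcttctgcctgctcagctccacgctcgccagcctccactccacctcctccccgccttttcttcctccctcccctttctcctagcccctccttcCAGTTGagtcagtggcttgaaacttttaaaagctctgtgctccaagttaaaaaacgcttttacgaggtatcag
The Slc1a2 window held 5 matches of CANNTG, and the windows of Aldoc, Aldh1l1 and Gja1 held 1 each. Of 32851 windows of the same length in the table, 72.3% held at least 1 match. Letters were searched on both strands. TTCNNNGAA, the letters of a STAT site, occurred in 8.30% of all windows. Among the members it was found in the windows of Slc1a3 and Gfap and in the other Aldoc window, and in none of the 4 printed. GC content of the printed windows was 45.7% for Slc1a2, 56.3% for Aldoc, 60% for Aldh1l1 and 47.7% for Gja1, beside a median of 52.7% over all windows. RefSeq entries were matched for 6 of the 7 members, and Aqp4 had no entry.

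The cell table was deep and the sections were shallow. Samples of cells held 2306470 to 15974543 counts, with a median of 138331 counts per cell. Section S4 held 8436518 counts (median 8266.5 per spot) and S8 held 6389042 (median 6705). All 765 cells had a count of the neuronal gene Snap25 and 756 had a count of Slc17a7, the cortical vesicular glutamate transporter, while the interneuron genes Gad1 and Gad2 had a count in 46 and 13 cells. Of 9 oligodendrocyte genes, the share of cells with a count ran from 2.88% to 63.8% (Mbp), and their summed level ran from 86.6 to 370 CPM between samples, where CPM is the count of a gene per 1000000 counts of the summed cells. Of the 6 core astrocyte genes with a row, 5 had a count in 1.44% to 2.22% of cells and Sox9 in 22.1%. Cell positions repeated between samples (331 distinct well names over 765 cells) and 162 spot barcodes occurred in both sections, so cells and spots were told apart by sample.

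Slc1a2, the gene of the glutamate transporter GLT-1, was found in most neurons. A count was present in 682 of 765 cells (89.2%, exact 95% interval 86.7 to 91.3%), and intervals here cover counting error only. Its level was lowest in sample 13 (206 CPM), had a median of 238 CPM over the 11 samples and was highest in sample 11 (334 CPM). The 3 animals stood at 290 (animal 1), 243 (animal 2) and 250.2 CPM (animal 3), and the spread over samples was 255 ± 46.1 CPM (SD, n = 11). With every cell thinned to 54512 counts, which left out 77 shallower cells, the share with a count was 87.2%.

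Aldoc was found in a smaller set of cells. A count was present in 333 of 765 cells (43.5%, interval 39.98 to 47.1%), and in 39.7% of thinned cells. The level was 55.9 CPM in sample 3, 111 CPM at the median and 195 CPM in sample 16, and 110 ± 39.2 CPM over samples (SD, n = 11). The counts were unevenly spread, with 64.0% of them in the tenth of cells that held most. Aldh1l1 had a count in 167 cells (21.8%, interval 19.0 to 24.9%), and in 20.2% of thinned cells. Its level ran from 10.7 CPM in sample 1 through a median of 23.5 CPM to 35.6 CPM in sample 18 (22.9 ± 8.22 CPM, SD, n = 11). The tenth of cells that held most carried 81.5% of its counts. All 11 samples held counts of all 3 genes, which is not so for the other 4 members.

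Slc1a3, Gja1, Aqp4 and Gfap were nearly absent over all cells. Slc1a3 had a count in 27 cells (3.53%), Gja1 in 16 (2.09%), Aqp4 in 13 (1.70%) and Gfap in 11 (1.44%). Sample levels ran from 0 to 12.3 CPM for Slc1a3, from 0 to 4.35 CPM for Gja1, from 0 to 3.47 CPM for Aqp4 and from 0 to 0.435 CPM for Gfap. Single cells carried much of this. A single cell of sample 12 held 106 of the 212 Slc1a3 counts, a cell of the same sample held 41 of the 93 Gja1 counts, and no cell held more than 1 count of Gfap. Few cells held more than 1 of the 4 genes: 50 cells had a count of 1 of them, 7 cells of 2, 1 cell of 3 and none of all 4. Markers of other cell types had shares of this size or above: Rgs5 of pericytes had a count in 3.01% of cells, the microglial gene Aif1 in 1.96%, and the median of the 9 oligodendrocyte genes was 6.41%. The plot shows the share of cells for each of the 7 genes by sample.

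**Figure D1:**
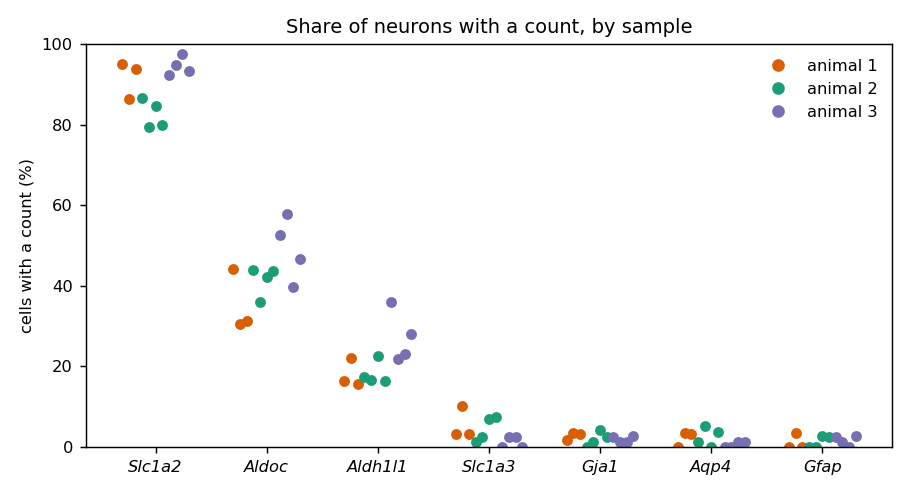
Percentage of cells with at least 1 count of each gene (vertical axis), 1 point per sample, coloured by animal. Slc1a2 lies at 79.5% or more in every sample, Aldoc between 30.5% and 57.7%, Aldh1l1 between 15.6% and 35.9%, and the other 4 genes at 10.2% (Slc1a3 in sample 2) or less.

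In cells without the 4 nearly absent genes, Slc1a2 and Aldoc had pooled levels close to those of all cells, and Aldh1l1 was slightly lower. In the 707 cells with no count of Slc1a3, Gja1, Aqp4 or Gfap the levels were 253 CPM for Slc1a2, 117 CPM for Aldoc and 23.9 CPM for Aldh1l1, beside 251, 118 and 25.04 CPM in all cells. These 707 are most of the 765 cells, so the pooled levels could differ little. By animal, Aldh1l1 was 12.2, 21.6 and 27.4 CPM in them, beside 16.6, 23.2 and 27.9 CPM in all cells of animals 1, 2 and 3. Sample 11 had 0 counts of Gja1 and Gfap, 1 count of Slc1a3 and 8 counts of Aqp4, and it had the highest Slc1a2 level of the 11 samples. Sample 2, the next highest in Slc1a2 (328 CPM), had the highest Gfap level (0.435 CPM). It held Slc1a3 at 3.26 CPM, Gja1 at 1.74 CPM and Aqp4 at 2.39 CPM. Whether these levels go together over samples was not tested. A stricter selection kept only the 127 cells with no count of 30 astrocyte genes (6 core genes and the 24 wider ones seen in fewer than 25% of cells), and the levels there were 283 CPM for Slc1a2, 181 CPM for Aldoc and 19.5 CPM for Aldh1l1. An Aldh1l1 count was then present in 12.6% of cells, beside 21.8% of all cells, and its level was 9.44, 11.9 and 27.0 CPM in animals 1, 2 and 3. Of the 167 cells with Aldh1l1, 67 had Aldoc, and of the 333 cells with Aldoc, 299 had Slc1a2.

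A single rule was used to say which members are neuronal here: a count in at least 50% of thinned cells in each of the 3 animals, and a level within 2-fold in cells without the core astrocyte genes. Slc1a2 met it, with 89.7%, 80.5% and 92.8% of thinned cells in animals 1, 2 and 3. Aldoc missed it over all cells (36.1%, 38.0% and 42.4%) but reached 50% of thinned cells in each animal with at least 10 cells of a cluster in clusters 5, 8 and 9 described below. These were 3 animals for cluster 8 and 2 for clusters 5 and 9. A cluster counted only with at least 2 such animals. Aldh1l1 met the rule in none of these clusters, since the highest of them reached 47.6% and 59.5% in the 2 animals with enough cells. Cluster 10 did not count, as only animal 2 had 10 cells there. In those cells 70% had Aldh1l1 and 70% had Aldoc after thinning. At a minimum of 25%, Slc1a2 and Aldoc were present in neurons at large and Aldh1l1 in clusters 2 and 5, and at 75% only Slc1a2 and, in cluster 9, Aldoc remained. Slc1a3, Gja1, Aqp4 and Gfap were low at each of the 3 minimums. Among all 15114 genes, 27.0% had a count in at least 50% of thinned cells and 35.1% in under 10%. The 4 low members are in the latter set.

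Cells were grouped by clustering from which the members and their relatives were left out, which drew 12 clusters. Clusters 1, 7 and 9 led in Calb1 and Ddit4l and are called superficial-like (135, 68 and 38 cells). Cluster 2 led in Tnnc2, Eps8l2, Scnn1a and Hsd11b1 and is called Tnnc2 class-like (122 cells). Clusters 3 and 8 led in Fezf2, Bcl11b, Parm1 and Chst8 and are called layer 5 ET-like, for extratelencephalic neurons (76 and 65 cells). Clusters 4 and 5 are called layer 6 IT-like and layer 5 IT-like, for intratelencephalic neurons (74 and 71 cells), cluster 6 is layer 6 CT-like, for corticothalamic neurons (71 cells), and cluster 11 is layer 6b-like (11 cells). Clusters 10 and 12 stayed unnamed (23 and 11 cells), and the latter led in Kcnip1, an interneuron gene. Levels are means over animals with at least 10 cells of a cluster, which 9 of the clusters had in 2 or 3 animals. Cells of cluster 3 all came from the posterior level and only 2 of them from animal 3, and cluster 9 was shallow, with a median of 75635 counts per cell.

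Of these 9 clusters, Slc1a2 was highest in the layer 6 CT-like cluster 6. The level there was 656 (animal 1), 518 (animal 2) and 459 CPM (animal 3), a mean of 544 ± 101 CPM (SD, n = 3). It was next highest in the layer 5 IT-like cluster 5 (366 ± 41.2 CPM, SD, n = 2), and these values did not reach into those of cluster 6. Clusters 2, 1, 7, 4 and 8 followed with means of 280 to 174 CPM, and each overlapped the next over its animals. Cluster 9 (99.4 ± 3.64 CPM, n = 2) and the layer 5 ET-like cluster 3 (60.3 ± 31.7 CPM, n = 2) stood below all of them without overlap. The layer 6b-like cells were higher still but few, with 1910 CPM in 4 cells of animal 1 and 1204 CPM in 7 cells of animal 2. All 11 of these cells had a count of Slc1a2 and none had a count of Slc1a3, Gja1, Aqp4 or Gfap.

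Of 12974 genes, 118 (0.91%) were higher in cluster 6 than in each of the other 8 clusters in all animals, Slc1a2 among them, and 40 (0.308%) were lower in cluster 3 than in every other, again with Slc1a2 among them. Within cluster 6 the shallower 35 cells held 441 CPM and the deeper 36 held 520 CPM. Of 7 relatives in glutamate transport, 3 had a count in at least 50% of thinned cells. Slc1a1, the neuronal glutamate transporter EAAC1, had its highest means in the 2 layer 5 ET-like clusters (129 ± 13.96 CPM in cluster 3, n = 2, and 121 ± 12.7 CPM in cluster 8, n = 3), where Slc1a2 was at 60.3 and 174 CPM. Glul, the glutamine synthetase that works beside glutamate uptake in astrocytes, had its highest mean in cluster 6 (52.8 ± 8.85 CPM, n = 3).

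Aldoc was highest in the superficial-like cluster 9. Its level was 569 CPM in animal 2 and 863 CPM in animal 3, a mean of 716 ± 208 CPM (SD, n = 2), and the 2 cells of animal 1 stood at 1090 CPM. The layer 5 ET-like cluster 8 came next, with 233, 331 and 267 CPM in animals 1, 2 and 3 (277 ± 49.7 CPM, n = 3), and the layer 5 IT-like cluster 5 had 118 and 305 CPM. The latter pair overlapped. The other 6 clusters had means of 25.9 to 86.4 CPM and stood below these 3 without overlap. The clusters that share a name differed, since cluster 3 had 40.5 CPM where cluster 8 had 277 CPM, and clusters 1 and 7 had 27.7 and 56.6 CPM where cluster 9 had 716 CPM.

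Of 12974 genes, 237 (1.83%) were higher in cluster 9 than in all other clusters in all animals, Aldoc among them. Cluster 9 was also the shallow cluster, and Aldoc was 816 CPM in its shallower 19 cells and 662 CPM in its deeper 19. Without cells that held a count of Slc1a3, Gja1, Aqp4 or Gfap, 35 cells of cluster 9 remained, 30 of them with Aldoc, at 687 CPM. Aldoa, the main aldolase of neurons, had a count in all 765 cells.

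Aldh1l1 was highest in the layer 5 IT-like cluster 5, at 81.8 CPM in animal 2 and 99.8 CPM in animal 3 (90.8 ± 12.7 CPM, SD, n = 2), and the 5 cells of animal 1 stood at 85.6 CPM. The Tnnc2 class-like cluster 2 was next, with 25.6, 46.9 and 40.3 CPM (37.6 ± 10.9 CPM, n = 3). Of 12974 genes, 84 (0.647%) were higher in cluster 5 than in every other cluster in all animals, Aldh1l1 among them. The layer 6 CT-like cluster 6 had 0 counts in 71 cells, which allows up to 4.23% of cells with a count and a level of up to 0.425 CPM (3 counts over the cluster), a limit on detection and not on expression. Over its summed cells cluster 5 was at least 221-fold higher than this limit. Aldh1l1 had a count in 29 of 43 cells of cluster 5 in animal 3 and in 12 of 23 in animal 2.

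Cells without any of the 4 nearly absent genes made up 67 of the 71 cells of cluster 5, and Aldh1l1 was 92.2 CPM in them. Within cluster 5 the shallower 35 cells held 85.1 CPM and the deeper 36 held 99.1 CPM. Cells with a count of any of the 4 nearly absent genes were frequent in cluster 2, where 93 of 122 cells remained without them, with Aldh1l1 at 41.1 CPM in those and 41.4 CPM in all. Cluster 2 had a Slc1a3 count in 18 cells (14.8%), and it held 170 of the 212 Slc1a3 counts and 62 of the 93 Gja1 counts. Aqp4 was most frequent in cluster 3, with a count in 5 of 76 cells. In the unnamed cluster 10, animal 2 had 10 cells, with Aldh1l1 at 52.9 CPM. Of 7 other folate genes with a row, the largest share of cells with a count was 34.8%, for Mthfd1, and none reached 50% of thinned cells. Aldh1l1 overlaps the long non-coding gene Gm15756 in RefSeq. Slc1a2 overlaps Gm13872 and LOC115489466, and Aqp4 overlaps A830021F12Rik, all of them long non-coding. Whether counting used strand is not given in the sources used here, so reads of these pairs cannot be told apart. The plot by cluster shows that the 3 genes peak in different clusters.

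**Figure D2:**
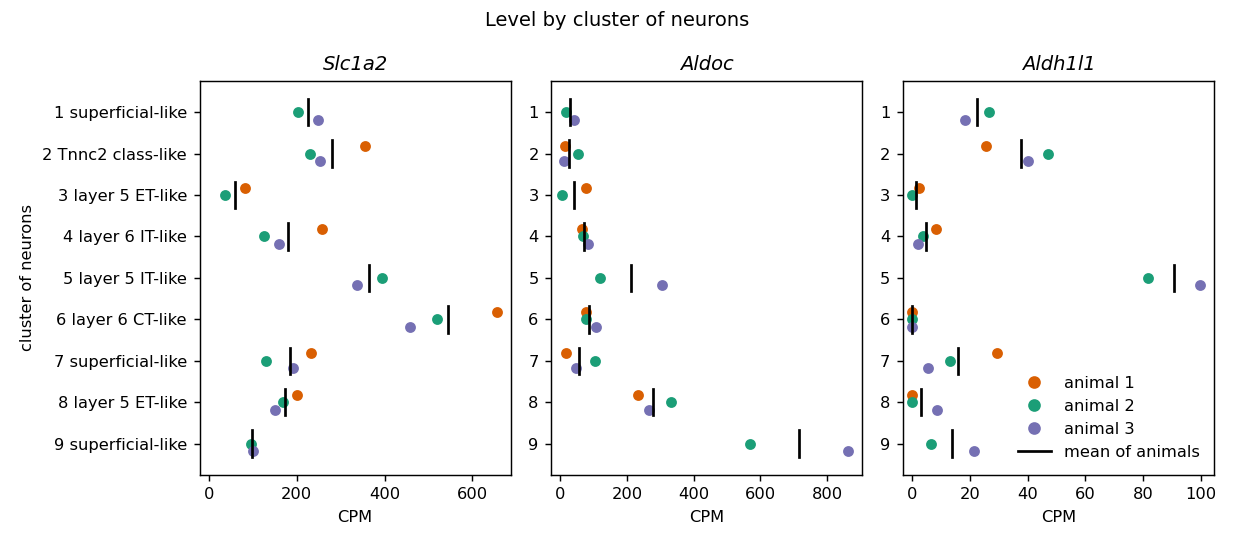
Level in CPM (horizontal axis, 1 scale per gene) of Slc1a2, Aldoc and Aldh1l1 in the 9 clusters of neurons with at least 10 cells in 2 or more animals (vertical axis), 1 point per animal, with the mean of the animals as a black line. Slc1a2 peaks in cluster 6, Aldoc in cluster 9 and Aldh1l1 in cluster 5, where it is 90.8 CPM against 0 in cluster 6.

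The 3 genes were not alike over the 24 sums of cluster and animal. Pearson's r of log2(CPM + 1) was 0.02 between Slc1a2 and Aldoc, 0.14 between Slc1a2 and Aldh1l1 and -0.05 between Aldoc and Aldh1l1. These sums share animals and clusters, so the values are descriptions. Among 10274 genes, the 5 most like Slc1a2 were Kif5c (r = 0.77), Lmna, Rell1, Trib2 and Chgb (0.70). Those most like Aldoc were Vamp1 (0.80), Cisd3, Snrpn, Leprotl1 and Fabp5 (0.69). Those most like Aldh1l1 were Atp1b2 (0.83), Coch, Dnajc21, Ptgfrn and Lhx2 (0.78). Atp1b2, a subunit of the sodium pump, is the only gene of the astrocyte lists among these 15.

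The level of Slc1a2 did not follow the depth of a cell in 1 direction, and that of Aldoc depended on how depth was cut. Cells of each animal were ranked by total counts and cut into 3 equal parts. On the log2 scale, the deepest part minus the shallowest was -0.93, 0.64 and -0.31 for Slc1a2 in animals 1, 2 and 3. For Aldoc it was 0.19, -0.26 and -1.03, and for Aldh1l1 it was 0.35, 2.02 and 0.04. With this cut only Aldh1l1 had the same sign in all 3 animals, and its value in animal 2 was much larger than in the other pair. With cells ranked within each sample, Aldoc was also lower in the deepest part than in the shallowest in each animal, at 88.4 against 107 CPM, 118 against 148 CPM and 109 against 197 CPM. An Aldh1l1 count was present in 6 of 50 cells of the shallowest part and in 14 of 51 of the deepest in animal 1. The share went from 5.94% to 29.4% in animal 2 and from 19.4% to 34.0% in animal 3. For Slc1a2 in animal 2 it went from 70.3% to 96.1%. Clusters differ in depth, and their part in these values was not tested.

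Dissection level is the comparison that took no part in choosing the genes, and it was tested on counts summed per animal and level. No member was called in any of the 5 comparisons, where a gene is called at an adjusted p under 0.05 (edgeR's quasi-likelihood test, Benjamini-Hochberg over all genes tested) and a change of at least 1 on the log2 scale. Gja1 and Gfap were too low to be tested in all neurons, and 5 members passed the filter. In the posterior against the anterior level, 1 of 13628 genes was called (0.00734%), and likewise 1 in the medium level (0.00734%). The called gene was Ptgds, a prostaglandin synthase abundant in meninges and oligodendrocytes, named here after its value was seen. It was lower in both, by log2 fold changes of -7.26 and -6.34.

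Slc1a2 was lower at the posterior level in each animal, though the change failed the correction. At the anterior, medium and posterior levels it stood at 324, 662 and 170 CPM in animal 1, at 286, 285 and 119 CPM in animal 2 and at 263, 288 and 205 CPM in animal 3. The posterior values lay below the anterior ones in 3 of 3 animals, and the share of all genes that do so was not counted. In this contrast 594 of 13628 genes had an unadjusted p under 0.05 with edgeR. The log2 fold change of posterior over anterior was -0.82 ± 0.29 (SE, n = 3 animals), with an edgeR adjusted p of 0.902. With the animal as a term (the paired fit, called the replicate block) it was -0.84 ± 0.24 with an edgeR adjusted p of 0.527, and 14 genes were called in place of 1, none of them a member. Cells of cluster 3, the lowest in Slc1a2, all came from the posterior level, where they made up 45.8% of the cells of animal 1, 37.6% of animal 2 and 1.80% of animal 3. Without cluster 3 the log2 fold change was -0.45 ± 0.27 (edgeR adjusted p of 1.00), an alternative added after the data were seen. The posterior value was then 255, 182 and 208 CPM in the 3 animals. Of the clusters high in Slc1a2, cluster 6 had 7 of 71 cells at the posterior level and the layer 6b-like cluster 11 had 0 of 11. Cluster 5, also high, had 32 of 71 cells there, and the unnamed clusters 10 and 12 had 6 of 23 and 3 of 11. These clusters stayed in this alternative, and the part of composition in the remaining change was not tested.

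The other members gave no call either. Aldoc had a log2 fold change of -0.19 ± 0.28 between posterior and anterior levels and of 0.15 ± 0.28 between medium and anterior levels (edgeR adjusted p of 1.00 and 0.999). For Aldh1l1 these were -0.52 ± 0.37 and -0.78 ± 0.38 (edgeR adjusted p of 1.00 and 0.999). It stood at 23.0, 29.3 and 32.6 CPM at the anterior level, at 9.33, 19.6 and 20.02 CPM at the medium level and at 14.5, 15.7 and 29.2 CPM at the posterior level in animals 1, 2 and 3. The medium values lay below the anterior ones in each animal. Slc1a3 and Aqp4 had SEs from 1.42 to 2.69 on the log2 scale, so no difference was detectable at this depth. Gja1, tested only where the filter let it in, stood at 4.43, 2.77 and 0.521 CPM at the anterior level and at 0.177, 0 and 0.0490 CPM at the posterior level. Without the filter its posterior log2 fold change was -5.17 ± 1.44 (edgeR adjusted p of 0.533), a fitted value on few counts.

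Within clusters, 3 contrasts had at least 5 cells of each animal at both levels. In the layer 6 IT-like cluster 4, Slc1a2 was lower at the posterior level by a log2 fold change of -1.09 ± 0.38 (edgeR adjusted p of 0.999), where 1 of 8729 genes (0.0115%) was called, the imprinted gene Nnat, named after its value was seen. Medium against anterior called 0 of 10237 genes (0%) in cluster 2 with edgeR, with 209 genes at an unadjusted p under 0.05, and DESeq2 called 0. The same contrast called 0 of 8625 genes (0%) in cluster 6 with edgeR, with 224 genes at an unadjusted p under 0.05, and DESeq2 called 3. The log2 fold change of Slc1a2 was 0.11 ± 0.29 in cluster 2 and 0.21 ± 0.32 in cluster 6. The plot by dissection level shows the values of each animal.

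**Figure D3:**
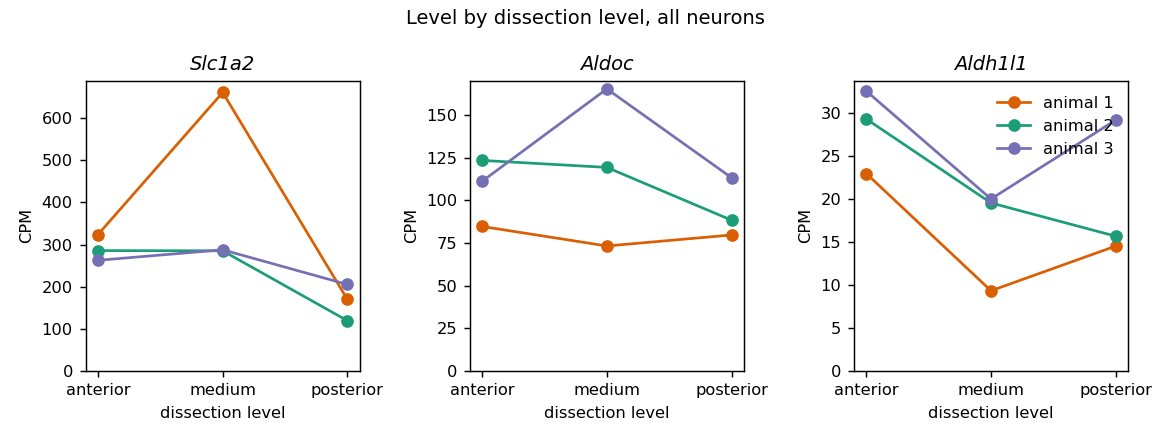
Level in CPM (vertical axis) of Slc1a2, Aldoc and Aldh1l1 at the 3 dissection levels (horizontal axis), summed over all neurons, with 1 line per animal. Slc1a2 is lowest at the posterior level in each animal (170, 119 and 205 CPM), and no gene shown passed the test.

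In the sections all 7 members were above their level in neurons. The level in S4 and S8 was 1453 and 1456 CPM for Slc1a2, 847 and 844 CPM for Aldoc, 285 and 310 CPM for Slc1a3, 103 and 118 CPM for Gja1, 57.5 and 56.3 CPM for Aqp4, 41.2 and 37.1 CPM for Aldh1l1, and 32.5 and 42.7 CPM for Gfap. A spot holds several cells of different types, so fewer cells of a type and less RNA per cell cannot be told apart here. Slc1a2 had a count in 1022 of 1022 spots of S4 and 947 of 951 spots of S8. Gja1 had a count in 53.3% and 49.8% of spots, Aldh1l1 in 28.0% and 20.6%, and Gfap in 20.8% and 21.8%.

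Set beside the sections, the members differed widely. The level in neurons was 63.9% of the mean section level for Aldh1l1, 17.3% for Slc1a2 and 13.9% for Aldoc. It was 1.28% for Aqp4, 0.725% for Gja1, 0.612% for Slc1a3 and 0.252% for Gfap. Over 9 oligodendrocyte genes the same share was 6.72% at the median and ran from 1.52% to 8.53%, the latter for Mbp, some transcripts of which are known in neurons. Slc1a2, Aldoc and Aldh1l1 lay above that range and the other 4 members lay below it. Over 33 genes of the wider astrocyte list the share was 4.26% at the median and ran from 0.531% to 71.9%, a range that holds Slc1a2, Aldoc and Aldh1l1. Of 34 genes of that list with a row in the cells, 6 had a count in at least 50% of thinned cells and 20 in under 10%. Over 4 neuronal genes the share ran from 176% to 432%, and over all 8394 genes with at least 10 CPM in the sections the median was 108%. Of these 8394 genes, 27.3% had a lower share than Aldh1l1, 6.87% a lower one than Slc1a2 and 5.78% a lower one than Aldoc. For the other 4 members this was 0.155% to 0.917%. Slc17a7, an excitatory neuron gene with a count in nearly all of these cells, stood at 15.4%, between Aldoc and Slc1a2. The microglial gene Aif1 stood at 12.3%, and Sox9, an astrocyte transcription factor, at 40.3%.

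The ratio of members to Gja1 also differed. For each count of Gja1 there were 14.1 counts of Slc1a2 in S4 and 12.4 in S8, but 314 in the neurons. For Aldoc the ratio was 8.24 and 7.16 in the sections and 147 in neurons, and for Aldh1l1 it was 0.401 and 0.315 against 31.3. Slc1a3 had a ratio of 2.78 and 2.63 in the sections and 2.28 in neurons. Aqp4 had 0.559 and 0.478 against 0.914, and Gfap 0.316 and 0.363 against 0.118. The neuronal ratios rest on 93 counts of Gja1, 41 of them in 1 cell. The 2 assays differ in how RNA is captured and counted, and the part of this in the ratios was not tested.

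**Figure D4:**
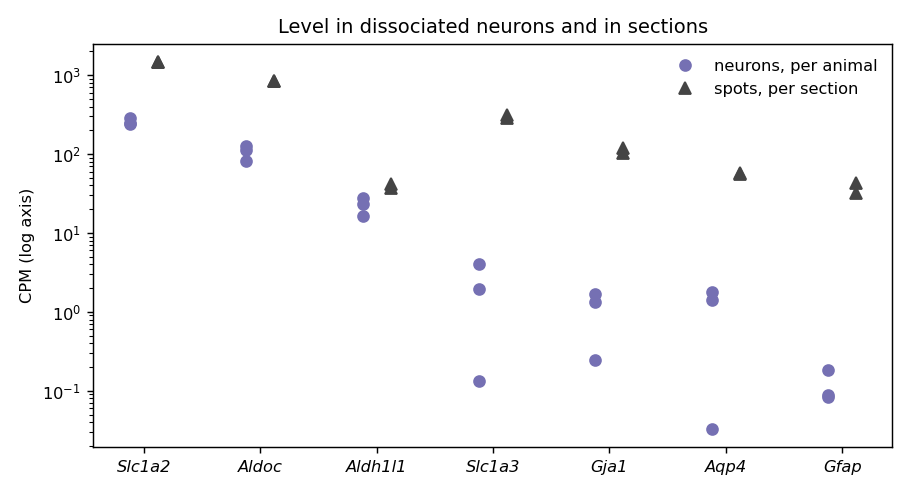
Level in CPM (vertical log axis) of each member in dissociated neurons (circles, 1 per animal) and in spots (triangles, 1 per section). Aldh1l1 has the smallest gap, 25.04 CPM in all neurons against 41.2 and 37.1 CPM in the sections, and Gfap the widest.

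Zones were drawn by clustering spots with the members left out and each gene centred within its section, and 10 zones with at least 10 spots in both sections were used (1926 spots). Zone 11 (25 spots in S4, 18 in S8) was led by Slc13a4, Ogn and Ptgds, genes of the meninges. Slc1a2, Aqp4 and Gfap were higher there than in every other zone in both sections, as were 805 of 14055 genes (5.73%). Slc1a2 stood at 2334 CPM in S4 and 2871 CPM in S8, Aqp4 at 253 and 318 CPM and Gfap at 158 and 342 CPM. The summed level of 9 meningeal genes was 823 and 880 CPM in zone 11, that of 9 oligodendrocyte genes was 1345 and 2456 CPM, and their part in these values was not tested. The means of all 7 members over the sections were highest in zone 11, and zone 9 was second for each. Zones 11 and 9 were also the shallowest, with medians of 4221 and 5382 counts per spot. The other zones used had medians of 6676 to 8283.5, and the part of depth in this order was not tested. Zone 9 held 18 spots of S4 and 102 of S8, led by Cmip and Reln, a gene of the superficial layer.

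The lowest zones differed by gene. Slc1a2 was lowest in zone 3, led by Trh and Dlk1, at 1099 and 1076 CPM, as were 95 of 14055 genes (0.676%). Aldh1l1 was lowest in zone 4, led by Ccn2 and Nr4a2, genes of layer 6b, at 20.4 and 19.3 CPM, as were 14 genes (0.0996%). Gja1 was lowest in zone 7, led by Myl4 and Scn4b, at 62.6 and 77.8 CPM, as were 46 genes (0.327%). The means of the highest over the lowest zone gave folds of 17.8 for Gfap, 8.11 for Aqp4, 4.99 for Aldh1l1, 4.21 for Gja1, 2.78 for Slc1a3, 2.39 for Slc1a2 and 2.17 for Aldoc. Aldh1l1 in a zone rested on 8 to 81 counts per section, so its values scatter more than those of Slc1a2.

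**Figure D5:**
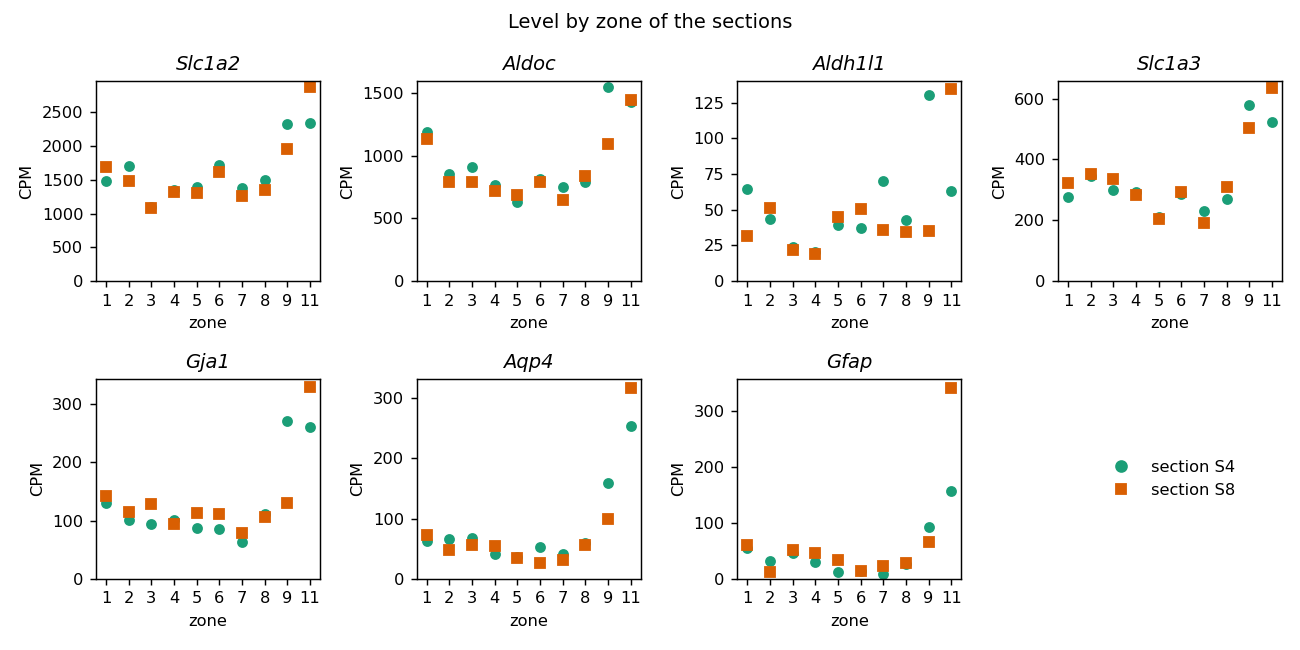
Level in CPM (vertical axis, from 0, 1 scale per gene) of each member in the 10 zones (horizontal axis) of section S4 (circles) and section S8 (squares). In zone 11 the mean of the sections is the highest for each of the 7 genes, but for Aldh1l1 the sections lie far apart there, at 63.3 CPM in S4, below zones 1, 7 and 9, and 134 CPM in S8.

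Across spots the members went together weakly. Pearson's r of log2 of counts per 10000 plus 1 was 0.28 in S4 and 0.36 in S8 between Slc1a2 and Aldoc, and 0.26 and 0.33 between Aldoc and Slc1a3. Spots of 1 section share a library and differ in depth, so these values are descriptions. For Aldh1l1 the member with the highest value was Aldoc in S4 (0.13) and Gja1 in S8 (0.09), and it rested on few counts per spot. Among 8046 genes, the gene most like Slc1a2 was mt-Co1 (0.56 and 0.45) and the gene most like Aldoc was Cst3, a cystatin abundant in astrocytes (0.47 and 0.44). Apoe, the apolipoprotein secreted by astrocytes, was most like Slc1a3, Gja1, Aqp4 and Gfap, with means over the sections of 0.36, 0.23, 0.26 and 0.26. Ranks 2 to 5 were mitochondrial genes for Slc1a3, Aqp4, Gfap and Aldoc, and Aldoc, Mt1, Cst3 and Clu for Gja1. For Gfap, mt-Cytb had a mean of 0.261 beside 0.263 for Apoe. Ckb was most like Aldh1l1, at 0.14 in both sections.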

How the data were processed

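Gene expression was measured as counts in dissociated neurons (11 samples, 3 animals) and in spots of 2 sections. The authors deposited raw counts, whole numbers for each gene in each cell or spot, as read from the values. The submitters' processing notes list NCBIM37 and Seurat for cells, with Space Ranger and mm10 added for sections. The aligner, strand setting, filters on cells and whether reads or molecules were counted are not given in the sources used here. Members, lists and clusters to describe were chosen with earlier results of these data known. CPM are counts of summed cells or spots per 1000000 of their total.

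Clusters and zones were drawn in scanpy 1.11.5 (10000 counts per cell, log, 2000 variable genes, 30 components, 15 neighbours, resolution 1, seed 1). 74 genes (members, astrocyte lists and relatives) were left out. A marker led a cluster at a log2 level of 1 above the others and a count in 25% of its cells. No doublet caller was run. The pairs of gene and cluster described by depth were picked after values were seen. Named genes were all members and, for likeness, the 5 genes with the highest correlation per member. Levels were tested with edgeR 4.0.16 (filterByExpr, TMM, quasi-likelihood) in R 4.3.3, with no animal term. DESeq2 1.42.0 was an alternative, beside the replicate block, no filter, thinning, each animal left out, other clustering settings and other minimums. The fit was tested on simulated data. Sums with the same number come from the same animal, which pairs them. Their deviations from level means correlated by 0.05 to 0.22 in the fit of all neurons. All p-values rest on 3 animals. No column was left without a sample (0).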

Additional observations from a re-analysis of the deposited data

How the results depend on the processing

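No member's log2 fold change between dissection levels was called under the alternatives run (the replicate block, DESeq2, no filter, thinned cells, each animal left out, and, added after the data were seen, without cluster 3). Genes called in posterior against anterior neurons numbered 1, against 14 with the replicate block, 56 with DESeq2, 2 with thinned cells and 1 to 2 with an animal left out (2 without animal 2 or 3). The block changed no other count by over 1.5 times. In medium against anterior neurons the number was 1, against 6 with DESeq2 and 0 to 1 with an animal left out (0 without animal 1). In cluster 4 it was 1, against 12 with DESeq2, 10 without a filter and 0 to 1 with an animal left out (0 without animal 1 or 2). In cluster 6 it was 0, against 3 with DESeq2 and 6 without a filter. At resolution 0.5, where clusters merge, cluster 3 lay with cluster 8 in a cluster of 141 cells, with Slc1a2 at 123 CPM and Aldoc at 185 CPM. Cluster 9 lay in one of 241 cells, with Aldoc at 98.0 CPM, and cluster 5 in one of 93 cells, with Aldh1l1 at 70.4 CPM. At a minimum of 25% the members present in neurons numbered 2. As a mean over spots of CPM per spot, Slc1a2 was 1531, Slc1a3 321, Aldoc 902 and Aqp4 64.1 CPM in the sections. Elsewhere the cause of a change was not tested. Few animals limit every test, and clusters 1, 3, 5 and 9 had 2 animals with enough cells. Few counts per spot limit Aldh1l1, Gfap and Aqp4.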
